A study of Homo sapiens with 12 samples.

Results

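The genes described here are 33 members of cholesterol and fatty acid synthesis, chosen by name from 53712 named genes in a table of raw counts. The sterol branch holds 24 of them: 8 enzymes of the mevalonate and isoprenoid steps, 11 enzymes from squalene to cholesterol, and 5 regulators or transporters. The fatty acid branch holds 9 (FASN, ACACA, ACLY, SCD, FADS1, FADS2, ELOVL6, ACSS2 and SREBF1). All 33 passed the filter on low counts, which left 17228 genes for testing.

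RNA was sequenced from H9, an established line of human embryonic stem cells grown in RSeT, a medium for naive pluripotency. The study asked what LINE1 (L1), a family of transposable elements, does to genes of the embryonic 8-cell stage in these cells. The 3 groups differ in the oligonucleotides transfected at 25 nM with 4 ul of a lipid reagent: ASO-Ctr, antisense oligos without a specific target; SO-L1, sense oligos to L1; and ASO-L1, antisense oligos to L1. Each group has 4 libraries, numbered 1 to 4 in the labels. All groups, controls included, were kept in 10 nM DZNep, an inhibitor of S-adenosylhomocysteine hydrolase that lowers histone methylation, and 5 nM TSA, a histone deacetylase inhibitor. All also received 0.7 uM trans-ISRIB, 5 uM emricasan and 10 uM Y-27632, which were withdrawn at 24 h. Cells were harvested at 48 h and not sorted, so transfected and untransfected cells were read together. A culture without DZNep and TSA, and the level of L1 RNA, were not analysed here. Nothing in the labels says that the 4 libraries of a group came from separate cultures, so p-values measure only the spread between these libraries, which may be technical.

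Library totals ran from 20367989 to 32180891 counts, and single member counts from 67 (CYP51A1) to 46060 (SCD). In a principal component analysis of all tested genes, the first 2 components held 40.6% and 28.4% of the variance and set apart both ASO-L1 from the other groups and numbers 1 and 2 from numbers 3 and 4. No label says what the numbers 1 and 2, or 3 and 4, share. Libraries of 1 group differed by a chi-square of 1.66 to 3.50 per degree of freedom within a pair of numbers and 12.3 to 17.1 across the pairs, both leaving out mitochondrial genes, so none was counted as a duplicate. Mitochondrial genes took 4.74% of counts in ASO-Ctr 2 and 6.04% to 8.81% in the other libraries. The pluripotency genes were present in every library, with POU5F1 at 916 to 1153 CPM (read counts scaled to a common effective library size), and 9 naive markers summed to 259 to 345 CPM, among them DPPA5 at 66.3 to 162 CPM and DPPA3 at 27.7 to 61.0, with KLF17 at 0.247 to 1.23 and ARGFX at 0 to 0.212. Marker genes of hepatocytes and adipocytes summed to 0.239 to 1.43 CPM.

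Cholesterol is built from acetyl-CoA through mevalonate, isoprenoids and squalene, and fatty acids from the same acetyl-CoA through malonyl-CoA. Both branches are controlled by the SREBP transcription factors, SREBF2 mainly for sterols and SREBF1 mainly for fatty acids. When sterols are scarce, SCAP carries SREBP to the Golgi for cleavage, and when they are plentiful INSIG1 holds the complex in the endoplasmic reticulum. SREBP binds sterol regulatory elements, usually beside sites for NF-Y (CCAAT boxes) and Sp1 (GC boxes).

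The promoter windows below, from RefSeq on GRCh38.p14, run 300 bases, 250 before to 50 after the annotated start. They are shown because SREBF2 was the only member, of those searched, with a match to the sterol element, DHCR7 had the most negative log2 change in ASO-L1, and INSIG1 and MSMO1 changed differently between library numbers. Each is written 5′ to 3′ on the strand of its gene, and capitals mark TCACNCCAC or CCAAT on either strand (ATTGG is CCAAT on the other strand). The windows lie at chr22:41832855-41833154 (plus strand, SREBF2), chr11:71448344-71448643 (minus strand, DHCR7), chr7:155297628-155297927 (plus strand, INSIG1) and chr4:165327419-165327718 (plus strand, MSMO1).
SREBF2: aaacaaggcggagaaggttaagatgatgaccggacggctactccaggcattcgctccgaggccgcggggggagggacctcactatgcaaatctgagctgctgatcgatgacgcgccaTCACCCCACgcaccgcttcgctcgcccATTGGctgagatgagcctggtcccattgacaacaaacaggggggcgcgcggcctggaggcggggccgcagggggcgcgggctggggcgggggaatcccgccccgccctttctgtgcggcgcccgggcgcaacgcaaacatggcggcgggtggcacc
DHCR7: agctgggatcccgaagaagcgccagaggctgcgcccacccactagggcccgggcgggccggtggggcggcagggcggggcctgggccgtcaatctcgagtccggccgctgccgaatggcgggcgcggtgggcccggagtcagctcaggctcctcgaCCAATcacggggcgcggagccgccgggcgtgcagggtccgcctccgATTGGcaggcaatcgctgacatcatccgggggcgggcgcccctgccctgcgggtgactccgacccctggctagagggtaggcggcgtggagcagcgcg
INSIG1: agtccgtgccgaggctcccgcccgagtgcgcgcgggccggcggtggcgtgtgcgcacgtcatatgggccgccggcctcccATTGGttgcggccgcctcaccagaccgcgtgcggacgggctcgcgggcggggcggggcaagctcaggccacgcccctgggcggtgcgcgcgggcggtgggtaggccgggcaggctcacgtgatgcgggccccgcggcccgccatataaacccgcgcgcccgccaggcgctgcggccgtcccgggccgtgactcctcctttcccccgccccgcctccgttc
MSMO1: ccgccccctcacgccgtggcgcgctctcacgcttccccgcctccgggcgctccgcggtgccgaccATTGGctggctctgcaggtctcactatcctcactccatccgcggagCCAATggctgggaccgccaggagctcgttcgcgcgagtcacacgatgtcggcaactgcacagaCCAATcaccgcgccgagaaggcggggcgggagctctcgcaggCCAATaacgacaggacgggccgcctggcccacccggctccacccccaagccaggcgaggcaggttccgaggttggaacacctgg

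A promoter entry was found for 29 of the 33 members; ACAT2, FDFT1, SQLE and FASN had none. The sterol element TCACNCCAC was in 1 of 29 (3.45%), against 1.13% of 35116 windows of the same length. CCAAT was in 18 of 29 (62.1%, against 34.6%), 15 of 21 in the sterol branch and 3 of 8 in the fatty acid branch. GGGCGG, the GC box, was in 26 of 29 (89.7%, against 45%), and CACGTG, an E-box, in 4 of 29 (13.8%, against 7.26%). Both strands were searched, and matches of different motifs could overlap. The 35116 windows hold every entry, some genes more than once, with no filter on expression. The members all passed the filter on low counts and have 1 window each, so the shares are not from a matched background. The first entry was used for the 9 members with more than 1. The last entry gave the same 4 counts, for CCAAT and GGGCGG from partly different genes. With it HMGCS1, DHCR7 and ACSS2 no longer matched CCAAT, while IDI1, ACACA and FADS2 did. The split of CCAAT between the branches thus depends on the entry used. Counting a match in any entry gave 1, 22, 28 and 4. Both CCAAT matches of DHCR7 lie in its first entry and none in its second. A match is a description of letters, and binding was not measured.

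Transcripts of both branches were lower in ASO-L1. In ASO-L1 against ASO-Ctr, 15 of 33 members fell and 1 rose (NPC1) at an adjusted p under 0.05 by edgeR's quasi-likelihood test with Benjamini-Hochberg adjustment, where 10.7% of all genes fell and 11.6% rose. The members' median log2 change was -0.23, beside -0.001043 over all genes, and 30 of 33 values were negative. With the library number as a block, 23 fell and 1 rose, where 22.5% of all genes fell and 22.5% rose. Another model of all 12 libraries had a mean for each group and pair of numbers. In it 23 members fell and 1 rose within numbers 1 and 2 (18.3% and 18.5% of all genes). Within numbers 3 and 4, 21 fell and 1 rose (16.6% and 16.6%). In 17 members all ASO-L1 libraries lay below all ASO-Ctr libraries, as in 12.2% of all genes, and in 1 member above, as in 13.3%. In 25 members ASO-L1 was below ASO-Ctr in all 4 same-number pairs of libraries, as in 26.5% of all genes. Since RNA was read in bulk, fewer cells of a type and less RNA per cell cannot be told apart.

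**Figure D1:**
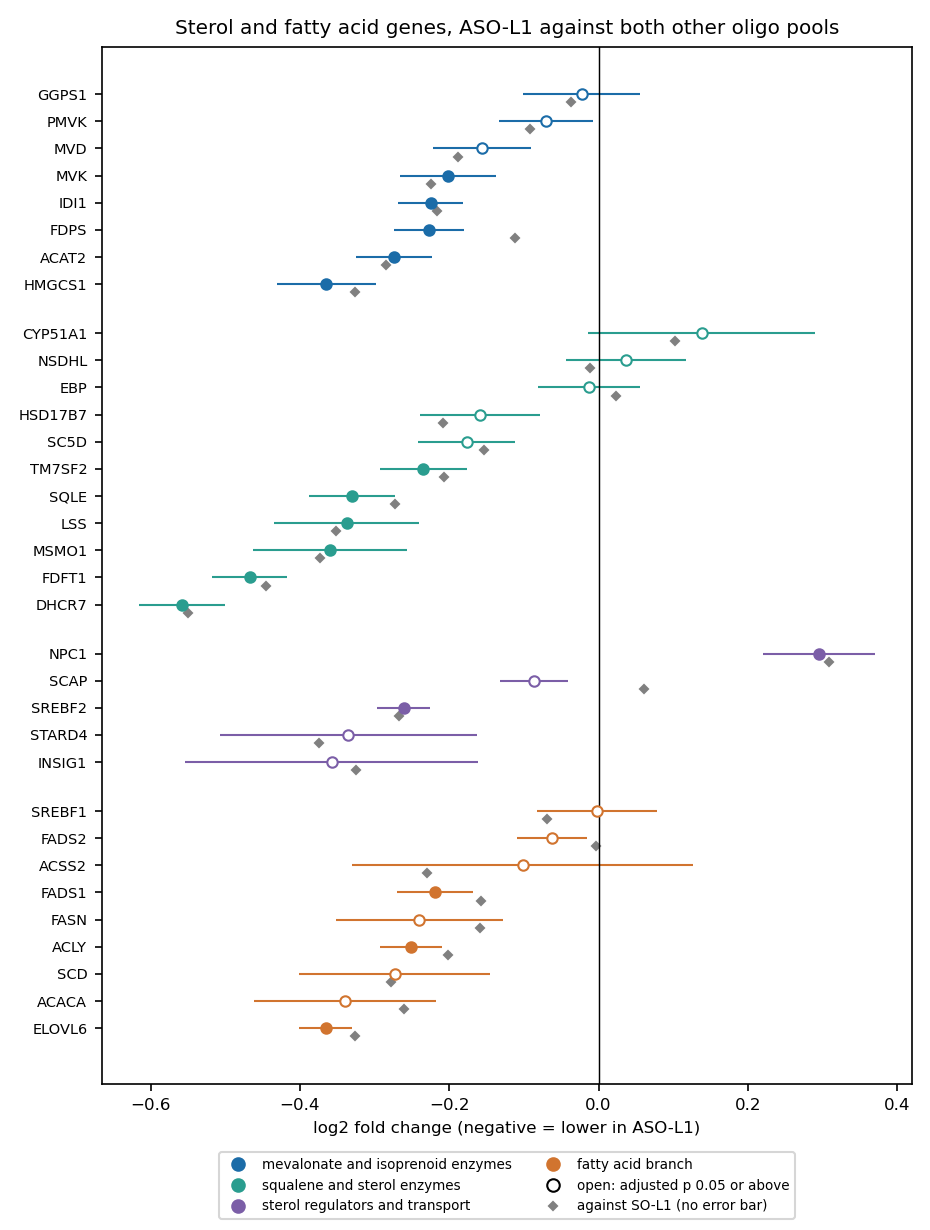
Log2 fold change of the 33 members in ASO-L1 against ASO-Ctr (circles, bars are ± SE, filled where the adjusted p is under 0.05), with the change against SO-L1 as grey diamonds without error bars. The x axis is log2 fold change and genes are grouped by role; 15 filled circles lie below 0 and 1, NPC1, above.

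In the mevalonate and isoprenoid steps, 5 of 8 enzymes fell (HMGCS1, ACAT2, IDI1, FDPS and MVK), where 10.7% of all genes fell. HMGCS1, which makes HMG-CoA, stood at 296, 322, 313 and 303 CPM in ASO-Ctr 1 to 4, at 305, 312, 298 and 286 in SO-L1, and at 214, 219, 257 and 267 in ASO-L1. All 4 ASO-L1 libraries were below all 8 others, numbers 1 and 2 the more so. The log2 change from ASO-Ctr was -0.36 ± 0.07 (SE; edgeR adjusted p = 0.00166). ACAT2, the cytosolic thiolase that joins acetyl-CoA units, stood at 84.2, 88.8, 92.4 and 88.2 CPM in ASO-Ctr libraries, at 89.4, 86.0, 92.8 and 88.1 in SO-L1, and at 69.1, 69.3, 75.5 and 78.6 in ASO-L1. Its groups did not overlap, and it fell by 0.27 ± 0.05 on the log2 scale (edgeR adjusted p = 0.00185). IDI1, the isopentenyl diphosphate isomerase, stood at 126, 127, 125 and 124 CPM in ASO-Ctr libraries, at 125, 124, 127 and 122 in SO-L1, and at 104, 101, 109.6 and 115 in ASO-L1. ASO-L1 again lay below both other groups, by 0.23 ± 0.04 on the log2 scale (edgeR adjusted p = 0.00238, against ASO-Ctr).

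FDPS, which makes farnesyl diphosphate, had a log2 change of -0.23 (edgeR adjusted p = 0.00382). MVK, mevalonate kinase, had -0.20 (edgeR adjusted p = 0.0386), and its call was lost without any 1 of 6 libraries: ASO-L1 1 or 2, ASO-Ctr 2, 3 or 4, or SO-L1 2 (-0.22 to -0.17, adjusted p 0.0509 to 0.0912). MVK passed with the number as a block (edgeR adjusted p = 0.0013). The decarboxylase MVD had -0.16 (edgeR adjusted p = 0.113) and passed with the number as a block (0.0019). PMVK had -0.07 and GGPS1 -0.02, neither past the threshold. Exon sharing limits some of these values, since the labels name a directional kit and the sources used here do not give the strand setting of the counting. In GENCODE 29, genes on the opposite strand cover part of the exonic bases of ACAT2 (SOD2-OT1 33.9%, SOD2 26.5%, TCP1 9.23%), FDPS (18.6%), HMGCS1 (15%) and IDI1 (14.8%), and TBCE covers 37.3% of GGPS1 on the same strand. Opposite-strand genes also cover 6.19% of LSS, 5.98% of NPC1 and 6.92% of SREBF1.

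From squalene to cholesterol, 6 of 11 enzymes fell (DHCR7, FDFT1, SQLE, TM7SF2, LSS and MSMO1), where 10.7% of all genes fell. DHCR7, which catalyses a final step of cholesterol synthesis, stood at 139, 145, 144 and 142 CPM in ASO-Ctr libraries, at 126, 142, 149.8 and 148 in SO-L1, and at 88.0, 99.7, 98.6 and 101 in ASO-L1. The ASO-L1 libraries were below all others, and the log2 change was -0.56 ± 0.06 (edgeR adjusted p = 2.47e-05), a 32.1% lower level. FDFT1, squalene synthase, stood at 426, 434, 431 and 428 CPM in ASO-Ctr libraries, at 415, 422, 433 and 423 in SO-L1, and at 288, 290.1, 325 and 339 in ASO-L1. It fell by 0.47 ± 0.05 on the log2 scale (edgeR adjusted p = 2.94e-05), with no overlap between groups. SQLE, squalene epoxidase, stood at 231, 242, 243 and 244 CPM in ASO-Ctr libraries, at 229, 232, 235 and 226 in SO-L1, and at 177, 173, 202 and 211 in ASO-L1. It fell by 0.33 ± 0.06 on the log2 scale (edgeR adjusted p = 0.00125), again without overlap.

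The sterol reductase TM7SF2 had a log2 change of -0.24 (edgeR adjusted p = 0.0109). LSS, which closes the rings of lanosterol, had -0.34 ± 0.10 (edgeR adjusted p = 0.0241), and lost its call without ASO-L1 1, ASO-L1 2, ASO-Ctr 3 or ASO-Ctr 4 (adjusted p 0.0542 to 0.0626). LSS passed with the block (edgeR adjusted p = 6.07e-11). In the model with a mean for each group and pair of numbers, it passed within each pair (9.08e-08 and 1.38e-10). MSMO1, a methylsterol oxidase, had -0.36 ± 0.10 (edgeR adjusted p = 0.0243), and lost its call without ASO-Ctr 1, ASO-Ctr 2, ASO-L1 2 or ASO-L1 3 (0.0547 to 0.0758). MSMO1 passed with the block (edgeR adjusted p = 0.0233). SC5D (-0.18, edgeR adjusted p = 0.0676) and HSD17B7 (-0.16, 0.189) passed with the block (0.00415 and 0.0263), and SC5D also without SO-L1 1 (0.0486) or SO-L1 3 (0.0479) and by DESeq2 (0.0495). EBP (-0.01), NSDHL (0.04) and CYP51A1 (0.14) did not pass. CYP51A1 shares 79.4% of its exonic bases with AC000120.2 on the same strand, so its count is uncertain.

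Among the sterol regulators and transporters, SREBF2 fell and NPC1 rose. SREBF2 stood at 531, 535, 511 and 496 CPM in ASO-Ctr libraries, at 509, 534, 517 and 522 in SO-L1, and at 444, 438, 427 and 421 in ASO-L1. ASO-L1 lay below all other libraries, by 0.26 ± 0.04 on the log2 scale against ASO-Ctr (edgeR adjusted p = 0.000202). NPC1, which exports cholesterol from lysosomes, stood at 44.0, 48.1, 44.0 and 40.7 CPM in ASO-Ctr libraries, at 45.8, 46.1, 44.0 and 39.4 in SO-L1, and at 59.5, 57.5, 50.9 and 49.2 in ASO-L1. All ASO-L1 values were higher than all others, with a log2 change of 0.30 ± 0.08 (edgeR adjusted p = 0.0126). The call was lost without ASO-L1 1 (0.24, adjusted p = 0.0537) or ASO-L1 2 (0.26, 0.05001). With the number as a block NPC1 passed (edgeR adjusted p = 4.26e-07).

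The remaining regulators did not pass in the fit without the block. INSIG1 stood at 99.1, 99.0, 62.4 and 63.7 CPM in ASO-Ctr libraries, at 97.6, 95.5, 65.0 and 59.2 in SO-L1, and at 69.1, 70.8, 55.2 and 57.8 in ASO-L1. In each pair of numbers ASO-L1 was the lowest group, but over all 4 numbers the groups overlapped, and the log2 change was -0.36 ± 0.20 (edgeR adjusted p = 0.227; 0.00301 with the block). STARD4, a cytosolic sterol carrier, stood at 83.9, 85.4, 61.4 and 62.0 CPM in ASO-Ctr libraries, at 93.7, 91.2, 60.1 and 56.1 in SO-L1, and at 63.5, 62.4, 52.6 and 53.5 in ASO-L1. It showed the same overlap, with -0.34 ± 0.17 (edgeR adjusted p = 0.195; 0.00623 with the block). SCAP stood at 109, 109, 103 and 100.3 CPM in ASO-Ctr libraries, at 90.1, 93.8, 98.2 and 97.7 in SO-L1, and at 101, 103, 99.0 and 93.8 in ASO-L1. Its ASO-L1 and ASO-Ctr libraries overlapped, with -0.09 ± 0.05 (edgeR adjusted p = 0.209).

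In the fatty acid branch 3 of 9 genes fell (ELOVL6, ACLY and FADS1), where 10.7% of all genes fell. ELOVL6, which lengthens saturated fatty acids, stood at 175, 188, 178 and 178 CPM in ASO-Ctr libraries, at 177, 178, 174 and 172 in SO-L1, and at 138, 140.3, 136 and 144 in ASO-L1. It fell by 0.37 ± 0.04 on the log2 scale (edgeR adjusted p = 1.6e-05), without overlap. ACLY, which splits citrate into acetyl-CoA, stood at 461, 481, 429.6 and 432 CPM in ASO-Ctr libraries, at 430.2, 451, 441 and 420.0 in SO-L1, and at 383, 385, 372 and 376 in ASO-L1. It fell by 0.25 ± 0.04 on the log2 scale (edgeR adjusted p = 0.000883), without overlap. FADS1, a desaturase of polyunsaturated fatty acids, stood at 206, 206, 219 and 216 CPM in ASO-Ctr libraries, at 191, 195, 216 and 209 in SO-L1, and at 172, 175, 189 and 192 in ASO-L1. It fell by 0.22 ± 0.05 on the log2 scale (edgeR adjusted p = 0.00741), without overlap against ASO-Ctr, while its highest ASO-L1 value exceeded the lowest of SO-L1.

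In the fit of all 12 libraries without a block, ACACA, FASN and SCD did not pass. All 3 passed with the block, and also within each pair of numbers fitted alone (edgeR adjusted p 7.025e-13 to 3.784e-05). ACACA, the acetyl-CoA carboxylase, stood at 354, 364, 291 and 302 CPM in ASO-Ctr libraries, at 332, 359.7, 261 and 289 in SO-L1, and at 279, 306, 221 and 229.8 in ASO-L1. ASO-L1 was lower within each pair of numbers and overlapped over all 4, with -0.34 ± 0.12 (edgeR adjusted p = 0.0646; 9.3e-12 with the block, 0.029 without ASO-L1 2, and 0.0358 by DESeq2). FASN, the fatty acid synthase, had -0.24 (edgeR adjusted p = 0.153; 1.37e-08 with the block), and SCD, the stearoyl-CoA desaturase, had -0.27 (0.155; 3.13e-10 with the block). SREBF1 stood at 296, 262, 243 and 249.6 CPM in ASO-Ctr libraries, at 284, 279.7, 271 and 267 in SO-L1, and at 288, 290.2, 245 and 226 in ASO-L1. Its groups overlapped, and the log2 change was -0.002022 ± 0.08 (edgeR adjusted p = 0.991). FADS2 (-0.06) and ACSS2 (-0.10), a desaturase and an acetyl-CoA synthetase, did not pass either.

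**Figure D2:**
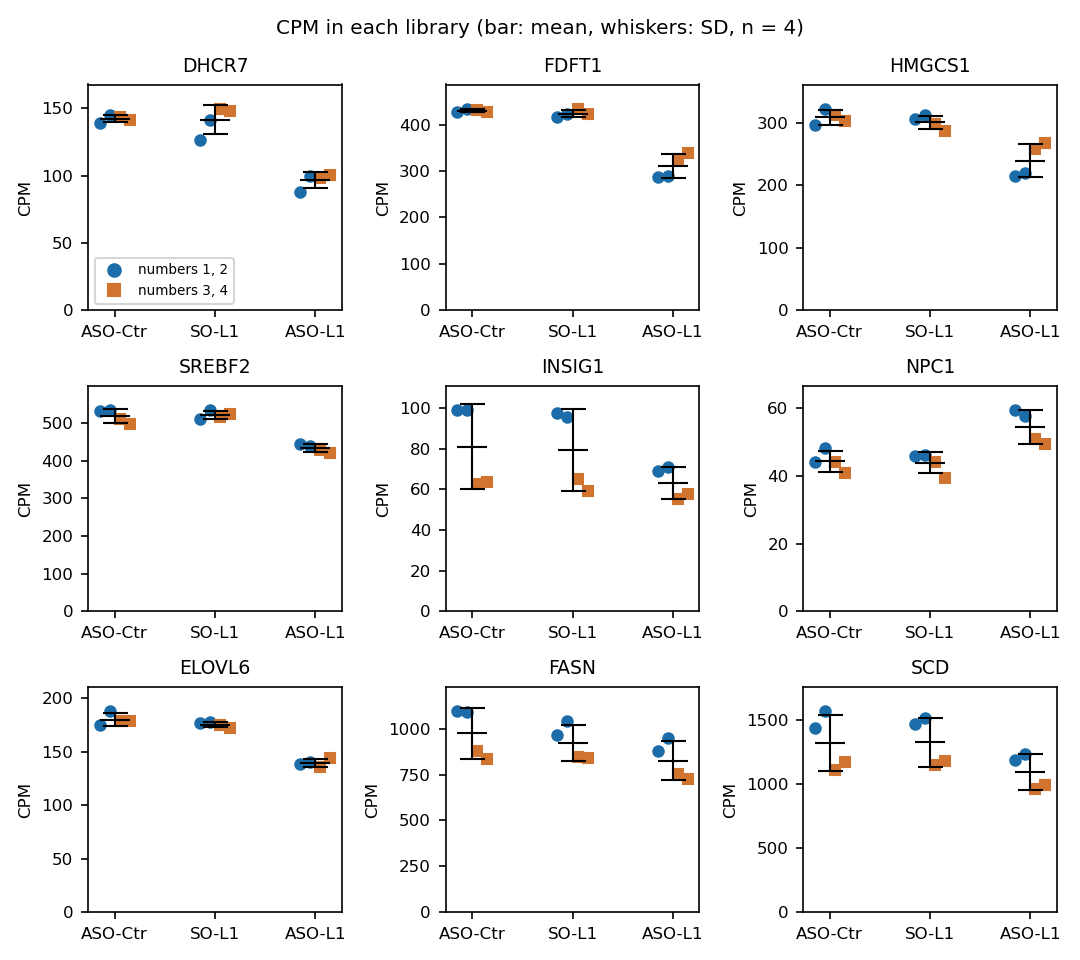
CPM in each of the 12 libraries for 9 members, by oligo group on the x axis, with the mean and SD of 4 libraries. Circles are numbers 1 and 2 and squares numbers 3 and 4; for INSIG1, FASN and SCD the squares lie below the circles in every group, and for DHCR7, FDFT1 and ELOVL6 all ASO-L1 points lie below the rest.

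Side by side, the branches had like medians in ASO-L1 against ASO-Ctr: -0.23 over 24 sterol branch genes (12 lower, 1 higher) and -0.24 over 9 fatty acid branch genes (3 lower). The sterol median minus the fatty acid median was 0.01377, with an SD of 0.03162 over the 4 same-number pairs of libraries. It ran from -0.04433 (without ASO-Ctr 2) to 0.05683 (without ASO-Ctr 3), so its sign changed with single libraries. Its sign also differed between the pairs of numbers, at -0.002743 in numbers 1 and 2 only and 0.02712 in numbers 3 and 4 only. With the number as a block 17 of 24 and 6 of 9 fell. Of all genes 22.5% fell with the block and 10.7% without it. The mean log2 level of the sterol branch in ASO-L1 1 to 4, relative to ASO-Ctr of the same pair of numbers, was -0.25, -0.26, -0.14 and -0.13. That of the fatty acid branch was -0.26, -0.21, -0.18 and -0.17, while all genes together lay at 0.02 to 0.04.

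Markers of cell types and pluripotent states also moved in ASO-L1 against ASO-Ctr, where 11.6% of all genes rose and 10.7% fell. Of 10 pluripotency genes 4 fell, and their summed level was 8588 to 9362 CPM in ASO-Ctr and 7651 to 8281 in ASO-L1. Of 8 tested naive genes 4 rose (KLF4, KLF5, TFCP2L1 and DNMT3L; summed 269 to 300.2 against 288 to 345 CPM), and of 7 primed genes 1 rose and 2 fell (504 to 579 against 469 to 523). Of 6 tested primitive endoderm genes 1 rose and 2 fell (148 to 175 against 116 to 141 CPM).

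Of 7 tested fibroblast genes 4 rose, namely VIM, SPARC, S100A4 and COL1A1 (list sum 615 to 718 against 971 to 1053 CPM). COL1A1 (44.9 to 137.6 CPM over all libraries), COL1A2 (137 to 193), SPARC (221 to 404) and THY1 (46.4 to 102) were well detected, while FAP was at 0 and COL3A1, DCN and LUM held 44, 1 and 5 counts in all. Of 8 tested trophectoderm and amnion genes 4 rose, namely KRT8, KRT18, KRT7 and GATA2 (list sum 613 to 712 against 941 to 999 CPM). The keratins KRT8 (425 to 779 CPM over all libraries) and KRT18 (98.9 to 171) made up most of that sum. TFAP2C was at 50.6 to 70.8 CPM and did not pass (log2 change -0.17). GATA2 held 467 counts in all and KRT7 645, and GATA3, TFAP2A and CDX2 held 62, 90 and 12. The part of these shifts in the members' values was not tested.

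ASO-L1 against SO-L1 gave 14 lower members and 1 higher, where 9.64% of all genes were lower and 10.7% higher. It shares the ASO-L1 libraries with the contrast above. The sterol branch had 11 lower and the fatty acid branch 3. DHCR7 fell by 0.55 ± 0.06 on the log2 scale, FDFT1 by 0.45 ± 0.05, ELOVL6 by 0.33 ± 0.04 and SREBF2 by 0.27 ± 0.04, and NPC1 rose by 0.31 ± 0.08. FDPS did not pass here (-0.11, edgeR adjusted p = 0.117; 0.0311 with the block). With the block the counts were 24 lower and 1 higher, where 21.7% of all genes were lower and 21.6% higher. The model with a mean for each group and pair of numbers gave 22 lower and 2 higher in numbers 1 and 2 (17.4% and 18.1% of all genes). In numbers 3 and 4 it gave 21 lower and 1 higher (16.0% and 15.7%). In 13 members all ASO-L1 libraries lay below all SO-L1 libraries (11.5% of all genes), and in 1 above (12.7%). In 22 members ASO-L1 was below SO-L1 in all 4 same-number pairs, as in 26.0% of all genes. FADS1 (-0.16, edgeR adjusted p = 0.0441) lost its call without any library but SO-L1 1, ASO-Ctr 3 or ASO-L1 4 (-0.19 to -0.13 over all 12 fits, p up to 0.1036). MVK and TM7SF2 lost theirs without ASO-L1 1, ASO-L1 2, SO-L1 3 or SO-L1 4 (p up to 0.0713 and 0.0685). LSS lost it without ASO-L1 1, SO-L1 3 or SO-L1 4 (up to 0.0615), and MSMO1 without SO-L1 1, SO-L1 2, ASO-L1 2 or ASO-L1 3 (up to 0.0702). With the block FADS1, MVK, TM7SF2, LSS and MSMO1 all passed (edgeR adjusted p 3.02e-11 to 0.0214). In the authors' deposited table of the same contrast, 21 members were lower and 1 higher at an adjusted p under 0.05, where 12.2% of its 21414 genes were lower.

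SO-L1 against ASO-Ctr gave 0 members past the threshold by edgeR, where 0.0290% of all genes passed. At an unadjusted p under 0.05 there were 2 members, FDPS (-0.12) and SCAP (-0.15), beside 3.06% of all genes. DESeq2 and limma-voom called 0, and the fit with the block called SCAP alone (adjusted p = 0.0346; 1.41% of all genes). A p above the threshold does not show that the levels were equal.

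Many members also differed between library numbers, by amounts that depended on the oligo group for some. In numbers 3 and 4 against 1 and 2, averaged over the 3 groups, 15 members were higher and 13 lower, where 29.5% of all genes were higher and 27.7% lower. These calls rest on pairs of libraries whose relation no label states. By count, 14 of 24 sterol branch genes were higher and 6 lower (median 0.08), while 1 of 9 fatty acid branch genes was higher and 7 were lower (median -0.18). The difference between the branches was not tested. Within ASO-Ctr alone 1 member was higher and 11 were lower (17.4% and 17.8% of all genes). Within SO-L1 7 were higher and 9 lower (19.2% and 18.8%), and within ASO-L1 10 were higher and 9 lower (17.0% and 17.5%). For HMGCS1 the difference was -0.01 ± 0.04 under ASO-Ctr, -0.08 ± 0.04 under SO-L1 and 0.27 ± 0.04 under ASO-L1, of which only the last passed (edgeR adjusted p = 9.56e-07). Leaving out 1 library at a time gave 23 to 28 calls.

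Within the sterol branch 14 of 19 enzymes were higher and 3 lower, beside 29.5% and 27.7% of all genes. LSS (0.26 ± 0.02) had the highest log2 change of the enzymes with numbers 3 and 4, whereas INSIG1 (-0.53 ± 0.03, edgeR adjusted p = 1.37e-22) and STARD4 (-0.46 ± 0.03, 4.1e-20) were lower, as were the enzymes MSMO1 (-0.21 ± 0.03), GGPS1 (-0.17 ± 0.03) and SC5D (-0.09 ± 0.03). Of the 5 regulators and transporters 3 were lower and none higher, and SREBF2 (-0.05, edgeR adjusted p = 0.0687) and SCAP (-0.03, 0.349) did not pass. Enzymes against regulators were not tested. In the fatty acid branch ACSS2 (-0.61 ± 0.04), SCD (-0.35 ± 0.03), ACACA (-0.33 ± 0.03) and FASN (-0.30 ± 0.02) were lower, and FADS1 (0.12 ± 0.02) was higher. The mean log2 level of the fatty acid branch in ASO-Ctr 3 and 4, relative to ASO-Ctr 1 and 2, was -0.23 and -0.25, and that of the sterol branch -0.02 and -0.05.

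**Figure D3:**
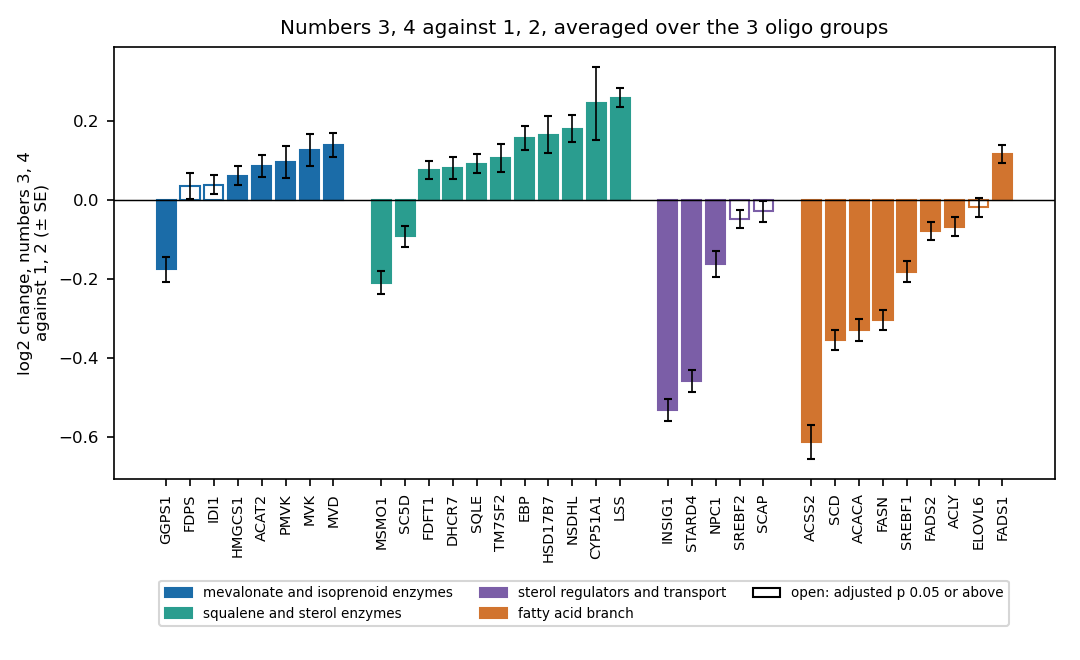
Log2 change of each member in numbers 3 and 4 against numbers 1 and 2, averaged over the 3 oligo groups (bars ± SE, open where the adjusted p is 0.05 or above), ordered within roles on the x axis. Most sterol enzymes lie above 0, and 8 of 9 fatty acid branch bars lie below it, from -0.61 for ACSS2 upward.

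Whether the response to ASO-L1 itself differed between the pairs of numbers was tested as an interaction. Against ASO-Ctr 3 members passed, where 0.778% of all genes did: HMGCS1, MSMO1 and INSIG1, each with a smaller drop in numbers 3 and 4. The log2 change of HMGCS1 was -0.51 in numbers 1 and 2, compared with -0.23 in numbers 3 and 4 (difference 0.28 ± 0.06, edgeR adjusted p = 0.00686). The call of HMGCS1 was lost without ASO-L1 1, ASO-L1 4, ASO-Ctr 2 or ASO-Ctr 4 (0.21 to 0.27, adjusted p 0.0505 to 0.0736). INSIG1 changed by -0.50 and -0.16 (difference 0.34 ± 0.07, edgeR adjusted p = 0.00264).

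MSMO1 stood at 158, 177, 139 and 132 CPM in ASO-Ctr libraries, at 171, 173, 141 and 128 in SO-L1, and at 122, 112, 118 and 121 in ASO-L1. The ASO-L1 libraries were alike across all 4 numbers, while both other groups were lower in numbers 3 and 4. Its change was -0.52 and then -0.18 (difference 0.34 ± 0.07, edgeR adjusted p = 0.0105), and the call was lost without ASO-L1 2, ASO-L1 4 or ASO-Ctr 4 (adjusted p 0.0553 to 0.1126). Leaving out 1 library gave 1 call (without ASO-Ctr 4 or ASO-L1 4) to 6 calls (without ASO-Ctr 1), and 2 calls without ASO-L1 1, ASO-Ctr 2 or ASO-L1 2.

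Against SO-L1 8 members passed the interaction test, where 1.76% of all genes did. STARD4 had a log2 change of -0.55 in numbers 1 and 2, compared with -0.13 in numbers 3 and 4 (difference 0.42 ± 0.07, edgeR adjusted p = 5.89e-05). HMGCS1 (0.35), MSMO1 (0.38), INSIG1 (0.32), SC5D (0.31), SQLE (0.24) and ACSS2 (0.45) differed in the same direction, and SREBF1 in the other (-0.23, edgeR adjusted p = 0.0483). Leaving out SO-L1 4 gave 4 calls, leaving out SO-L1 1, SO-L1 2, ASO-L1 2 or ASO-L1 4 gave 5, and the other libraries gave 7 to 9. Single calls were lost for SQLE (without SO-L1 1, 2 or 4 or ASO-L1 2 or 4, adjusted p up to 0.1625), SC5D (without SO-L1 1 or ASO-L1 2 or 4, up to 0.0706), INSIG1 (without SO-L1 4, 0.0953), ACSS2 (without SO-L1 2 or 4, up to 0.0926) and SREBF1 (without any 1 of 9 libraries, up to 0.3446). Against ASO-Ctr the same difference for STARD4 was 0.21 ± 0.07 (edgeR adjusted p = 0.183).

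**Figure D4:**
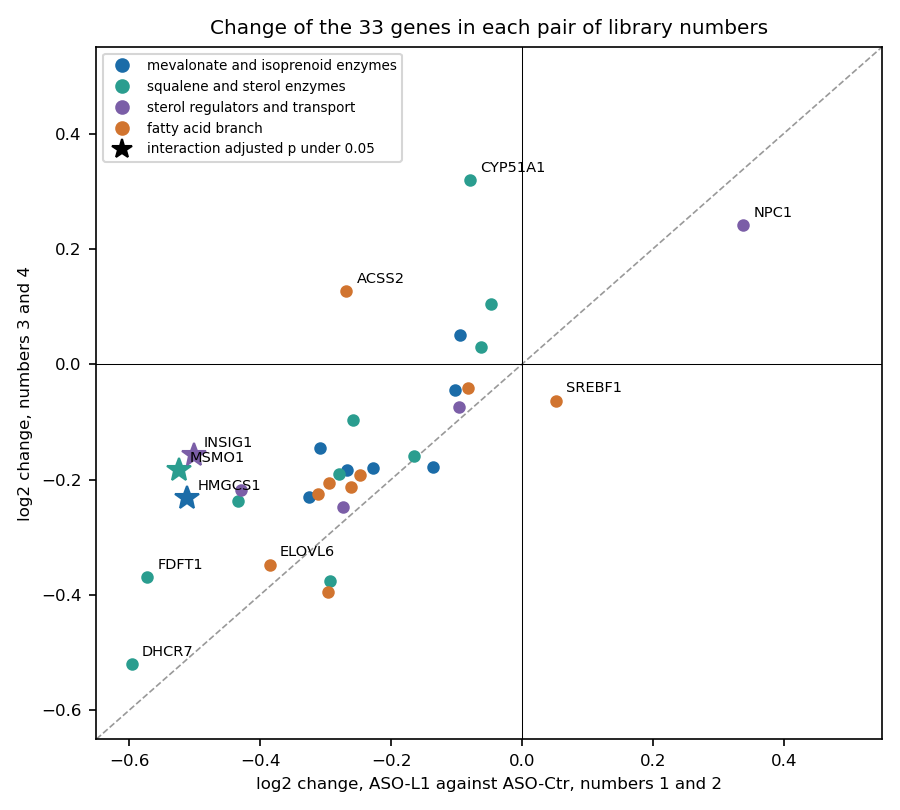
Log2 change of each member in ASO-L1 in numbers 1 and 2 (x axis) and in numbers 3 and 4 (y axis); stars mark members whose difference between the pairs passed the interaction test. INSIG1, HMGCS1 and MSMO1 have the more negative change in numbers 1 and 2 against ASO-Ctr.

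Neighbouring pathways were read from lists of other genes, with all genes as the background: 11.6% rose and 10.7% fell, or 22.5% each way with the block. Many of the shares below lie near these, and nothing particular to a list is read from them. Of 15 genes of SREBP processing and sterol transport 2 rose and 1 fell: RNF139, an endoplasmic reticulum ubiquitin ligase, by 0.26 ± 0.05, LBR, a nuclear envelope protein with sterol reductase activity, by 0.16 ± 0.04, and ERLIN1 by -0.17 ± 0.05 (log2, ASO-L1 against ASO-Ctr). LBR lost its call without ASO-Ctr 1, ASO-Ctr 2 or ASO-L1 4 (adjusted p up to 0.0658) and ERLIN1 without ASO-Ctr 4 (0.0556). With the block 4 of the 15 rose and 5 fell. Of 9 tested LXR genes 1 rose, the partner receptor RXRA (0.24 ± 0.08), and with the block 2 rose and 3 fell. RXRA lost its call without ASO-Ctr 1, ASO-Ctr 2 or ASO-L1 2, 3 or 4 (adjusted p up to 0.1126). Of 31 tested genes of other fatty acid and glycerolipid synthesis 3 rose and 5 fell, among them ME1, the NADPH-making malic enzyme, with means of 18.2 CPM under the control oligos and 10.0 under ASO-L1 (-0.86 ± 0.09, edgeR adjusted p = 1.92e-05). AGPAT3, an acyltransferase, changed by 0.61 ± 0.08 and the citrate carrier SLC25A1 by -0.20 ± 0.04. TECR, another of the 5, lost its call without ASO-Ctr 1, 2 or 4 or ASO-L1 1, 2 or 3 (adjusted p up to 0.0921). With the block 8 of these 31 rose and 10 fell.

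Of 18 genes of fatty acid oxidation 2 rose and 3 fell (11.6% and 10.7% of all genes). CPT1A, which admits fatty acids to mitochondria, rose by 0.50 ± 0.11 on the log2 scale, while CPT2 (-0.28 ± 0.06) and ETFA (-0.23 ± 0.04) fell, and with the block 4 rose and 7 fell (22.5% of all genes each way). Of the other 2 calls, HADHB (0.20) lost its call without ASO-Ctr 1, 3 or 4 or ASO-L1 1, 2 or 4 (adjusted p up to 0.1246), and HADH (-0.16) without any library but SO-L1 3 or ASO-L1 4 (up to 0.1299). Of 10 genes of isoprenoid side paths 2 fell, beside 10.7% of all genes: PDSS2 (-0.42 ± 0.06), for the tail of coenzyme Q, and PGGT1B (-0.25 ± 0.05), a protein prenyltransferase. With the block 3 rose and 2 fell, beside 22.5% of all genes each way. LBR, ERLIN1, RXRA, TECR, HADHB and HADH all passed with the block (edgeR adjusted p 1.79e-05 to 0.00103). The median log2 changes of these lists lay between -0.08163 and 0.02345.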

How the data were processed

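RNA from 12 libraries of H9 cells was measured by directional poly(A) RNA-seq, per the labels' protocols. The submitters' processing notes name Trim Galore 0.4.0, TopHat2 2.0.13, featureCounts of Subread 1.5.0 and build hg19. The authors deposited raw counts per gene symbol, a log2 table that its name calls batch corrected, and a table of ASO-L1 against SO-L1 with log2 fold changes, p-values and adjusted p-values. That deposited table also has t and B scores by the authors, which were not used. The method of the batch correction and the strand setting of the counting are not given in the sources used here, nor is the meaning of a tag on the counts for duplicate removal. The log2 table was used only beside the counts: in it 25 of 33 members had ASO-L1 below ASO-Ctr without overlap, as were 19.8% of its 21097 genes. INSIG1 had an SD of 0.07 there over the ASO-Ctr libraries. From the counts, its ASO-Ctr means were 99.1 CPM in numbers 1 and 2 and 63.0 in numbers 3 and 4. Lack of overlap in the log2 table is thus not the same measure as in the counts, where 17 members had it. Every raw count column correlated best with the log2 column of its own name.

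Counts were fitted in R 4.3.3 with edgeR 4.0.16 (TMM factors, filterByExpr by group with a least count of 10 and a least total of 15, robust quasi-likelihood, a mean per group, all 12 libraries; two-sided, Benjamini-Hochberg over 17228 genes). The SE is the log2 change divided by the square root of F. A second model had a mean for each group and pair of numbers. DESeq2 1.42.0 and limma 3.58.1 (voom), other scaling, no filter, a replicate block and leaving out each library were alternatives. Library totals of 20367989 to 32180891 limit precision to 0.0303 CPM for 3 counts over the ASO-Ctr group, counting error only. Rows without a gene name held at most 3 counts.

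Deviations from the group means correlated at 0.45 to 0.56 between libraries of the same number, at 0.45 to 0.54 between numbers of the same pair (1 with 2, 3 with 4), and at -0.53 to -0.43 otherwise. Sharing a number thus gave about the same correlation as sharing only a pair of numbers. No pairing by single number within a pair is shown. Counts of 17228 genes were also simulated, with 50 genes changed at each fold and no difference between numbers 1, 2 and numbers 3, 4. The ASO-L1 against ASO-Ctr step then recovered 60% of genes changed 1.2-fold and 86% of those changed 2-fold. The real libraries do differ between these pairs of numbers, so the recovery in them was not measured.

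Members and gene lists were chosen with earlier results of these data known. Of the members, full values are given for the 6 sterol and 4 fatty acid enzymes with the smallest p, 4 regulators, and those leading the tests between library numbers. NPC1 was added after its value was seen. From each neighbouring list up to 3 genes past the threshold are named, with others whose call rested on single libraries. Shared exonic bases were counted from 5% upward.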

Additional observations from a re-analysis of the deposited data

Results flagged for a closer look

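In 2 of 99 groups of 4 libraries, 1 library stood apart from the other 3 by Dixon's criterion. Chance gives this in about 1 in 20 groups of 4 independent values with 1 common spread. Here the pairs of numbers differ and the genes share libraries, so that rate is not an expectation for these 99 groups. SQLE was 230.8 CPM in ASO-Ctr 1 and 242.2 to 243.5 in the other ASO-Ctr libraries. DHCR7 was 87.98 CPM in ASO-L1 1 and 98.65 to 100.7 in the other ASO-L1 libraries.

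The change in ASO-L1 differed between numbers 3 and 4 and numbers 1 and 2 by the edgeR interaction test. Against ASO-Ctr the difference in log2 change was 0.2795 for HMGCS1 (adjusted p = 0.006862), 0.3404 for MSMO1 (0.01053) and 0.3432 for INSIG1 (0.002641). Against SO-L1 it was 0.3516 for HMGCS1, 0.2384 for SQLE, 0.3791 for MSMO1, 0.3059 for SC5D, 0.3245 for INSIG1, 0.4202 for STARD4, 0.454 for ACSS2 and -0.2271 for SREBF1 (edgeR adjusted p 5.893e-05 to 0.04833). What separates the pairs of numbers was not tested.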

How the results depend on the processing

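The count of members changed in ASO-L1 against ASO-Ctr was 16, and 14 to 24 over the other settings. It was 24 with the replicate block and 13 to 17 when 1 library was left out. Calls over all genes moved as well, with 3847 in the main fit, 7747 with the block and 3195 with no filter. Against SO-L1 the count of members was 15. It was 25 with the replicate block, 24 in numbers 1 and 2 only, and 11 to 15 when 1 library was left out. Over all genes there were 3497 calls, 7469 with the block and 5863 in numbers 1 and 2 only. SO-L1 against ASO-Ctr gave 1 member with the block and 1 in numbers 1 and 2 only. All genes in that contrast gave 5 calls in the main fit, 243 with the block and 124 in numbers 1 and 2 only. Interaction calls ranged from 1 to 6 (ASO-Ctr) and 4 to 9 (SO-L1) when 1 library was left out, and the branch difference from -0.04433 to 0.05683.

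Sign changes touched only members that had not passed. In numbers 3 and 4 only, GGPS1 was 0.0539, EBP 0.0329 and ACSS2 0.1293. In numbers 1 and 2 only, CYP51A1 was -0.07861, NSDHL -0.04599 and SREBF1 0.05101. SREBF1 was 0.002762 with total counts alone and 0.001584 with no filter. Leaving out 1 library, GGPS1 ran from -0.06421 to 0.02742, NSDHL from -0.02079 to 0.08989, EBP from -0.04789 to 0.01637, ACSS2 from -0.2406 to 0.06241 and SREBF1 from -0.06087 to 0.05919. The cause was not tested. Against ASO-Ctr the block added the 8 members named in the report and changed no other call; against SO-L1 it added 10, the same 8 with FDPS and ACSS2, and lost none. MVK lost its call with total counts alone (0.06773) and with no filter (0.1093), and MSMO1 with no filter (0.07951). Over all alternatives for single genes, 1731 results kept their direction and side of the threshold, 149 no longer passed, 27 newly passed and 18 changed sign.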
